A study of Mus musculus with 2 samples.

Results

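The nuclei described here are the mural nuclei of mouse brown adipose tissue, that is, its pericytes and vascular smooth muscle nuclei. They were chosen from their own RNA, among barcodes with under 20% mitochondrially encoded UMIs (unique molecular identifiers, which count each captured RNA molecule once). The summed UMIs of 7 genes (Postn, Trpc6, Abcc9, Pdgfrb, Daam2, Myh11 and Carmn) had to reach 3, spread over at least 2 of these genes. This sum also had to exceed the UMIs of a fibroblast set (Pdgfra, Dcn and Lama2), an endothelial set (Ptprb, Flt1, Cyyr1 and Cdh5), a macrophage set (Mrc1, F13a1 and Cd163) and a skeletal muscle set (Ttn, Neb and Trdn). The rule found 55 mural nuclei among 6872 barcodes, of which 4513 lay under the mitochondrial limit. Of the 55, 12 held a Myh11 UMI (Myh11+) and 43 did not (Myh11-).

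The tissue came from C57BL/6 mice, an inbred strain, and was profiled by single-nucleus RNA sequencing of DAPI-sorted nuclei on the 10X Genomics droplet platform. TN mice were housed at thermoneutrality, where the body needs no extra heat production, and 1cyc mice were sampled 4 days after a primary, transient acute cold challenge. Nuclei of 5 mice were pooled for each group and sequenced as 1 library. Without replicates no p-value was computed, and an effect of cold cannot be told apart from one of the library. Neither the length of the cold challenge nor the age or sex of the mice is given in the sources used here. The TN library gave 43 mural nuclei and the 1cyc library 12.

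Pericytes lie inside the basement membrane of capillaries, in contact with endothelial cells, while smooth muscle cells ring arterioles and venules. Endothelial PDGF-B, acting on the receptor encoded by Pdgfrb, recruits mural cells, and Notch3 signalling maintains them. Calcium entry activates myosin light chain kinase and contracts these cells. Nitric oxide relaxes them through cyclic GMP, which is made by soluble guanylyl cyclase and read by the kinase encoded by Prkg1.

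The libraries differed in depth and quality. Depth per barcode started at 500 UMIs in the TN library and at 262 in the 1cyc library, and 2275 of the 4321 1cyc barcodes but 84 of the 2551 TN barcodes lay above the mitochondrial limit. Mural nuclei held a median of 1186 UMIs (470 to 2914), 1240.0 in TN and 1060.0 in 1cyc, beside 729 over all barcodes under the limit. Their mitochondrially encoded share had a median of 5.25% in TN and 3.41% in 1cyc. The libraries shared 6 barcode sequences, 0 of them mural, and Scrublet called 16 TN barcodes, 1 1cyc barcode and 0 mural nuclei doublets. Levels are given as CPM, the counts per 1000000 UMIs of the nuclei summed, and a range in parentheses after a level, ratio or share is its 95% interval. These intervals cover counting error only, and not how far mice or libraries vary.

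Mural nuclei made up 43 of 2467 TN barcodes under the limit (1.74%, 1.26 to 2.34) and 12 of 2046 1cyc barcodes (0.587%, 0.303 to 1.02). With at least 500 UMIs required in both libraries, the 1cyc share was 11 of 1091 (1.01%, 0.504 to 1.80). With a mitochondrial limit of 5%, TN had 1.57% (0.973 to 2.39) and 1cyc 0.830% (0.380 to 1.57). The share was thus lower in 1cyc at each setting, but the intervals overlapped once the depth minimum or the stricter limit was applied. Endothelial barcodes, chosen by the same kind of rule, numbered 168 in TN and 38 in 1cyc. Of all mural and endothelial barcodes, 20.4% (15.2 to 26.5) were mural in TN, beside 24.0% (13.1 to 38.2) in 1cyc, and the intervals overlapped. The part of dissociation and nuclear recovery in these shares was not tested.

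The genes that chose the nuclei are given as a description. Postn encodes periostin, a matrix protein, and had 927 CPM (694 to 1212) in TN and 1129 (632 to 1861) in 1cyc mural nuclei, beside 4.07 in all other barcodes. Trpc6, a cation channel that admits calcium, had 979 CPM in TN and 1279 in 1cyc, beside 4.31 in the others. Abcc9, the sulphonylurea receptor subunit of the vascular ATP-sensitive potassium channel, had 1364 and 1505 CPM, beside 13.9. Each rule gene, these and those that follow, had overlapping intervals in the libraries. Pdgfrb had 1661 CPM in TN and 2332 in 1cyc, and 27.3 in the others. Outside mural nuclei it was most frequent in fibroblast barcodes, with 254 CPM (196 to 323) and a UMI in 52 of 187 of them. Daam2, a formin that acts on actin, had 420 CPM (269 to 624) in TN and 828 (413 to 1481) in 1cyc, beside 3.35. Carmn, a long non-coding RNA of smooth muscle, had 944 and 1129 CPM, beside 26.4. Myh11, the smooth muscle myosin heavy chain, had 385 CPM (241 to 582) in TN and 1053 (576 to 1767) in 1cyc, beside 4.55.

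**Figure D1:**
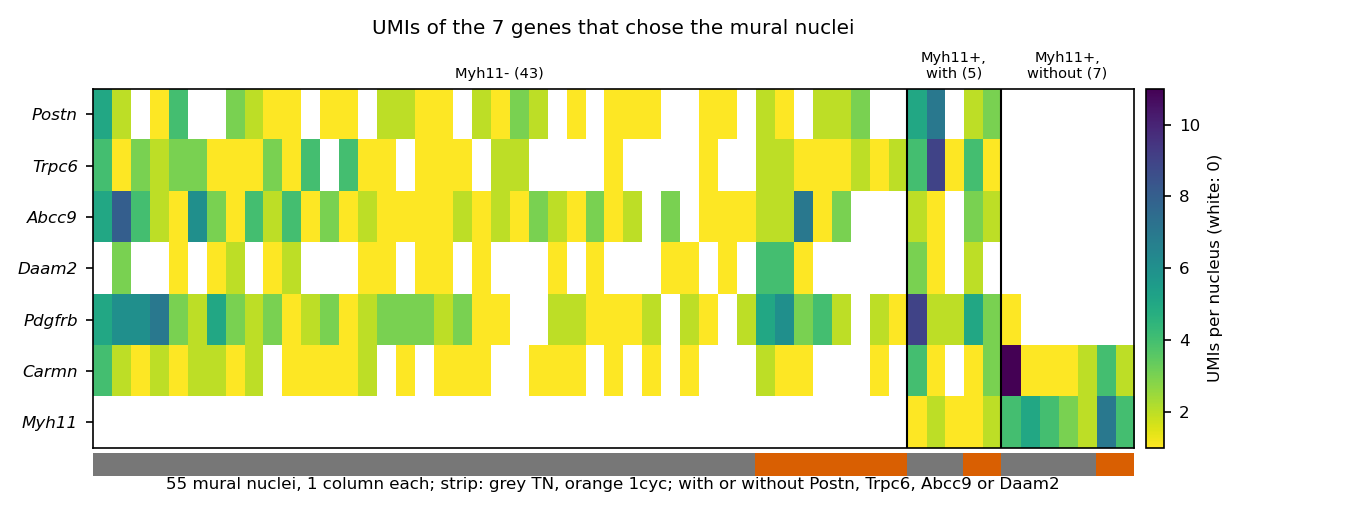
UMIs of each rule gene (rows) in each of the 55 mural nuclei (columns; white is 0), with the 43 Myh11- nuclei at the left, then the 5 Myh11+ nuclei with a UMI of Postn, Trpc6, Abcc9 or Daam2 and the 7 without; the strip below is grey for TN and orange for 1cyc. The last 7 columns hold Myh11 and Carmn, and Pdgfrb in 1 of them.

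Per nucleus, Pdgfrb was detected in 44 of the 55, Abcc9 in 42, Carmn in 39, Trpc6 in 35, Postn in 33, Daam2 in 22 and Myh11 in 12. In endothelial barcodes, of a like depth (median 1145 UMIs), Abcc9 was detected in 5 of 206, Pdgfrb in 2, Trpc6 and Myh11 in 1 each and Postn, Daam2 and Carmn in 0. The rule for endothelial barcodes limits these genes, so low counts there are built in and measure no background. In fibroblast barcodes, under the same kind of rule, Pdgfrb was detected in 52 of 187 and Carmn in 10. Abcc9 and Pdgfrb were found together in 38 nuclei, and Myh11 and Carmn in 11, while Myh11 and Abcc9 were found together in 4. The summed UMIs of the 7 genes had a median of 7 per mural nucleus (3 to 28). The 4 sets that this sum had to exceed were at 0 UMIs in 37 mural nuclei, at 1 in 12 and at 2 or more in 6. At the threshold of 3 sat 3 nuclei, and just outside it lay 7 barcodes with 2 UMIs of 2 genes and 10 with 3 or more UMIs of 1 gene. A pericyte list described next had 8462 CPM (5623 to 12229.6) in the 3, 8166 (5750 to 11256) in the 7 and 6264 (5266 to 7396) in the 10, beside 12830.2 in the 52 members above the threshold. Without Ebf1, the levels were 5439.7 (3224 to 8597), 4193 (2525 to 6548), 1802 (1288 to 2454) and 7889 (7231 to 8590) CPM in the same order.

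Pericyte genes that the rule did not use were also found in these nuclei. Of a list of 15 such genes, 14 had a UMI in mural nuclei, and each of the 55 nuclei held at least 1. The summed level was 12625 CPM, beside 3063 in endothelial, 5629.8 in fibroblast and 4092 in all other barcodes. Ebf1 alone had 4851 CPM in mural nuclei and 4911 in fibroblast barcodes. Without it, a comparison added after the data were seen, the level was 7774 CPM in mural nuclei, beside 1573 in endothelial, 719 in fibroblast and 798 in all other barcodes. The ratio of mural nuclei to all other barcodes was then 9.74 (8.88 to 10.7), beside 3.09 (2.88 to 3.30) with it, and 54 of the 55 nuclei held a UMI of the other 14 genes. Over all genes, 1820 had a mean of at least 100 CPM over mural and other barcodes. Of these, 393 were at least 2-fold higher in mural nuclei (21.6%) and 343 at least 2-fold lower (18.8%), with a median log2 ratio of 0.10. With TMM scaling, which moved that median by -0.43, the split was 284 higher and 498 lower. All these genes were measured in the nuclei that the rule chose, so the counts are a description and no test. A gene near 0 in 1 of the groups met the minimum only by being high in the other. Counts past 2-fold on the lists, here and below, are therefore partly built in. Of the 7 pericyte genes compared, 6 were at least 2-fold higher, and Ebf1 was not. Of the 393 genes, 294 were at least 2-fold higher in each library taken alone. Haemoglobin and Alas2 transcripts made up 78332 CPM of the other barcodes but 369 CPM of mural nuclei, and their part in the ratios was not tested.

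Notch3, a receptor mutated in a hereditary small vessel disease of the brain, had 2622 CPM (2219 to 3077) in TN and 3235 (2341 to 4358) in 1cyc mural nuclei. It had 1 UMI in the 206 endothelial barcodes, 111 CPM in fibroblast and 27.1 CPM in all other barcodes, and was detected in 48 mural nuclei. Rgs5, a brake on G protein signalling often taken as a pericyte marker, had 1259 CPM in TN and 677 in 1cyc mural nuclei, and also 428 CPM in endothelial barcodes. Rgs5 therefore set mural nuclei apart from the endothelium by less than Notch3 did. Kcnj8, the pore of the channel that Abcc9 serves, had 8 UMIs in mural nuclei and 3 in all others, and Higd1b, used as a pericyte marker in other tissues, had 0. Cspg4, which encodes the NG2 proteoglycan, had 7 UMIs, and Vtn, which encodes vitronectin, 2.

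Genes of the relaxation pathway set mural nuclei apart from other barcodes. Prkg1 had 10769 CPM (9935 to 11654) in TN and 11888 (10106 to 13893) in 1cyc mural nuclei, and each of the 55 nuclei held 1 to 32 of its UMIs, with a median of 13. It had 199.8 CPM in all other barcodes and 68.4 in endothelial ones, but 1114 in fibroblast barcodes. The subunits of soluble guanylyl cyclase, Gucy1a1 and Gucy1b1, each had 36 UMIs in mural nuclei, 511 CPM, beside 1.92 and 5.03 CPM in the others. Gucy1a2, another alpha subunit, had 1106 CPM beside 41.9. Mrvi1, a substrate of the kinase that damps calcium release, had 794 CPM beside 11.5. Of the 15 genes compared on a cyclic GMP and cyclic AMP list, 9 passed 2-fold upward in mural nuclei and 4 downward. The shares over all genes were 21.6% upward and 18.8% downward. The lower ones included Pde3b, a phosphodiesterase of adipocytes (355 CPM beside 1789.7), and Prkar2b, a protein kinase A subunit of the same cells (227 beside 1309.6). The related Pde3a (1049.7 CPM beside 127) and Pde10a (894 beside 29.7) were among the higher ones.

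Genes of calcium entry and excitation were also set apart. Cacna1c, the pore of the L-type calcium channel, had 2308 CPM (1931 to 2736) in TN and 3085 (2214 to 4185) in 1cyc mural nuclei, beside 24.0 in all other barcodes and 14.4 in endothelial ones. Ano1, a calcium-activated chloride channel, had 1390.2 CPM beside 134. Of 14 calcium genes compared, 6 passed 2-fold upward and 2 downward, beside 21.6% and 18.8% of all genes. Itpr2, an intracellular release channel, was one of the lower ones, at 213 CPM beside 1223. Among potassium channels, Kcnq5, of the family that carries the M current, had 5209.5 CPM (4635 to 5836) in TN and 4665 (3576 to 5980.1) in 1cyc mural nuclei, beside 62.1 in the others. Kcnd3, an A-type potassium channel, had 36 UMIs in mural nuclei and 13 in the other 4458 barcodes.

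Ednra, the endothelin receptor, had 397 CPM in mural nuclei beside 9.58 in all other barcodes, and Agtr1a, the angiotensin II receptor, had 454 beside 12.0. Rgs6, a regulator of G protein signalling, had 2241 CPM beside 26.4, with a UMI in 43 of the 55 nuclei. Of 35 receptors and RGS proteins listed, 15 had 0 UMIs in mural nuclei, among them the alpha-1 adrenergic receptors Adra1b and Adra1d, the beta-3 receptor Adrb3 and the vasopressin receptor Avpr1a. Adra1a had 3 UMIs, a level of 42.6 CPM. The interval of a count of 0 over the 70494 mural UMIs reaches 52.3 CPM. Expression of these receptors below that level could therefore have been missed at this depth. Of the 6 genes on this list that could be compared, 5 were at least 2-fold higher in mural nuclei, beside 21.6% of all genes.

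**Figure D2:**
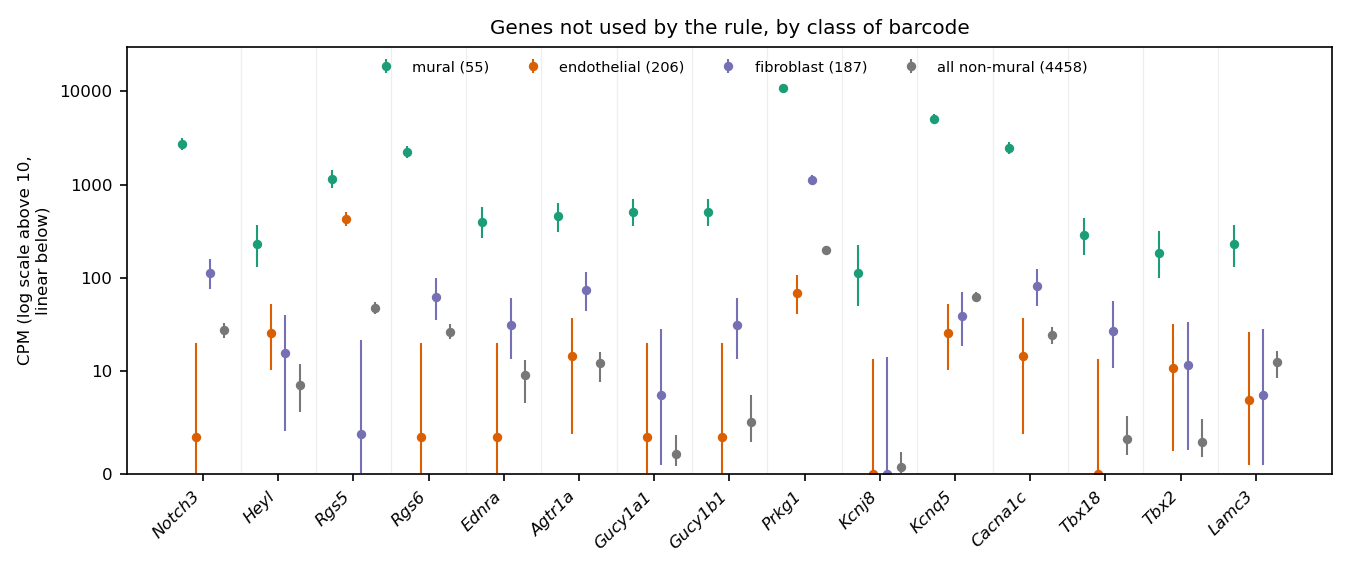
Level in CPM, on an axis that is linear near 0 and logarithmic above, of 15 genes outside the rule in mural, endothelial, fibroblast and all non-mural barcodes, with 95% counting intervals. Mural points lie above the other 3 for each of the 15 genes.

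On the Notch list, 5 of 6 compared genes were at least 2-fold higher in mural nuclei, among them Heyl, a Notch target (227 CPM beside 8.62), Jag1, a ligand (199 beside 34.0), and the coactivator Maml3 (2057 beside 186). Basement membrane and matrix genes were at least 2-fold higher for 8 of 13, such as Lamc3, a laminin chain (227 CPM beside 12.5), Sparc (525 beside 83.6) and Timp3, an inhibitor of metalloproteinases (894 beside 139). The summed matrix level was 4085 CPM (3627 to 4586) in mural, 4730.0 (4478 to 4993) in endothelial and 5822 (5532 to 6123) in fibroblast barcodes, so it did not set mural nuclei above those classes. Tbx18, a transcription factor of mural lineages, had 284 CPM, 26.9 in fibroblast barcodes, 0 UMIs in endothelial ones and 3.35 CPM in all others. Tbx2 had 184 CPM beside 3.11. Ebf1, a factor shared with adipocytes and their precursors, had 4851 CPM in mural, 4911 in fibroblast and 3294 in all other barcodes. Of 5 TGF-beta and BMP genes compared, 0 passed 2-fold in either direction, too few genes to set against the share over all genes. Contractile genes were at least 2-fold higher for 5 of 6, among them Mylk, myosin light chain kinase (397 CPM beside 6.71), and Cald1, caldesmon (936 beside 48.4). Beside these lists, 21.6% of all genes compared were at least 2-fold higher.

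Among the 15 genes with the highest lower bound of the ratio to other barcodes, several are better known from neurons. Those reported were, in falling order of that bound, Gucy1a1, Nostrin, Kcnd3, Notch3, Cacna1c, Clstn2, Gabra2, Tmc5, Kcnq5, Rgs6, Prune2, Shc3, Ppfia2 and Gipr. Their ratios ran from 82.3 for Kcnq5 to 266 for Gucy1a1. In TN alone the ratios ran from 80.8 for Kcnq5 to 317 for Kcnd3. In 1cyc alone they ran from 63.5 for Prune2 to 506 for Clstn2, leaving out Gucy1a1, which had 0 UMIs in the other 1cyc barcodes. Nostrin, which binds nitric oxide synthase, had 46 UMIs in mural nuclei and 6 in endothelial barcodes. Gabra2, a GABA receptor subunit, had 40 UMIs in mural nuclei and 18 in the 4458 others. Gipr, the receptor of the gut hormone GIP, had 16 UMIs in 13 mural nuclei and 6 in all others, with 0 in endothelial and fibroblast barcodes.

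Likeness to the rule genes was measured over 8 profiles, the mural, endothelial, fibroblast and remaining barcodes of each library. Among the 5 genes most like the mean of the 7 rule genes were Cacna1c (Pearson r = 0.985 on log2 of CPM + 10), Ednra (0.983), Tbx5 (0.982) and Prune2 (0.980). The rule genes chose these classes, so a gene that is high in mural nuclei correlates with them largely by construction. Profiles of 1 library also share its depth and quality, and these correlations are a description.

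Adipocyte transcripts were low in mural nuclei. Of an adipocyte list, 11 genes were compared with all other barcodes and 11 were at least 2-fold lower, beside 18.8% of all genes. Adipoq and Ucp1 had 0 UMIs. The list had 2440 CPM in mural, 5867 in endothelial, 3136 in fibroblast and 15104.5 in all other barcodes. Against endothelial barcodes 2 of 8 genes were at least 2-fold lower, beside 21.4% of all genes. Against fibroblast barcodes 1 of 7 was lower, beside 16.7% of all genes, and 1 was higher. Low levels were thus not particular to mural nuclei. The 5 genes with the lowest upper bound of the ratio were Acacb, an acetyl-CoA carboxylase (42.6 CPM beside 1343), Ppara (355 beside 3947), Car3, a carbonic anhydrase (70.9 beside 1148), Pdk4 (14.2 beside 522) and Tspan18 (28.4 beside 675). Pparg, the regulator of adipocyte differentiation, was lower but present, with 1319 CPM beside 3627 in the others and a UMI in 43 of the 55 nuclei. Endothelial barcodes held 1987 CPM of Pparg and fibroblast barcodes 819. The part of free adipocyte RNA in these mural UMIs was not tested.

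Markers of other cell types were low, with few exceptions. Of 12 endothelial genes outside the rule, 8 had a UMI, 411 CPM in all (276 to 591) beside 6422 in endothelial barcodes, and Tie1, Egfl7, Vwf and Erg had 0. Of 12 fibroblast genes, 7 had a UMI, 1646 CPM in all beside 12355 in fibroblast barcodes. Opcml had 52 and Celf2 48 of these 116 UMIs, while Col1a1, Pi16, Dpp4, Smoc2 and Lum had 0. Macrophage markers had 227 CPM, from Mertk, Dab2, Rbpj and Lyz2, with Adgre1, Csf1r, Cd68, Itgam, Cd74 and Ptprc at 0. The Schwann list had 2 UMIs and the mesothelial and lymphoid lists 0. The skeletal muscle list had 119 UMIs, of which 117 were Dmd, while Ryr1, Myh1, Myh2, Myh4, Acta1, Ckm and Actn3 had 0.

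The Myh11+ nuclei were split by their other rule genes, and this split was chosen after their values were seen. Of the 12, 7 (5 TN and 2 1cyc) held 0 UMIs of Postn, Trpc6, Abcc9 and Daam2, and 5 (3 TN and 2 1cyc) held at least 1. The 7 had 2 to 7 Myh11 UMIs each and the 5 had 1 or 2, which is no finding, since nuclei without those 4 genes could meet the rule only through Myh11, Carmn and Pdgfrb. Depth was lower in the 7, with a median of 827 UMIs, beside 1683 in the 5 and 1207 in the 43 Myh11- nuclei. The mitochondrially encoded share had a median of 3.06% in Myh11+ and 5.60% in Myh11- nuclei, and its part in the differences was not tested.

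The share of contractile genes in the 7 is given nucleus by nucleus, as a description. A list of 19 contractile genes outside the rule took 2.94%, 2.03%, 1.44%, 1.21% and 1.20% of the UMIs of the 5 TN nuclei and 2.79% and 2.11% of those of the 2 1cyc nuclei. In the 5 Myh11+ nuclei with pericyte genes it took 0.0609% to 0.569%, and in the 43 Myh11- nuclei 0% to 0.747%, with a median of 0.214%. The 7 did not overlap with the other 48 nuclei in this share. They were chosen for Myh11 and for the lack of Postn, Trpc6, Abcc9 and Daam2 UMIs. Higher contractile and lower pericyte levels in them are therefore partly built in. The summed level was 19093 CPM in the 7 and 2513 in the Myh11- nuclei, a ratio of 7.60 (5.92 to 9.74). For the 5 the ratio to the Myh11- nuclei was 0.730 (0.413 to 1.21). The pericyte list had 4624 CPM in the 7, 15205 in the 5 and 13170.2 in the Myh11- nuclei. Without Ebf1 it had 2387, 9274 and 8181 CPM in the same order. Per nucleus its ranges overlapped, at 0.0959% to 1.02% in the 7 and 0.323% to 2.45% in the Myh11- nuclei.

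**Figure D3:**
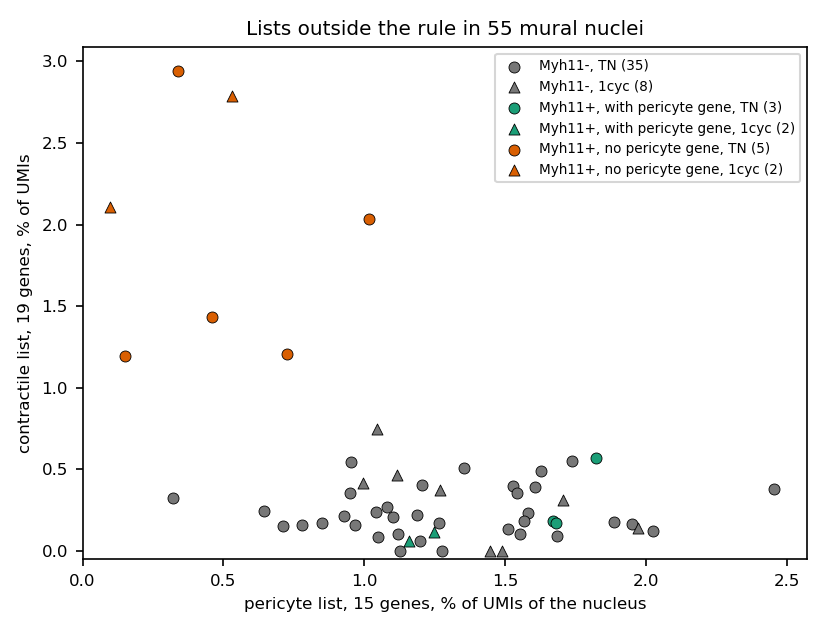
Share of each nucleus' UMIs from 19 contractile genes (y axis, percent) against its share from 15 pericyte genes (x axis, percent), both outside the rule; circles are TN and triangles 1cyc. The 7 Myh11+ nuclei without pericyte rule genes lie from 1.20% to 2.94% on the y axis and all other nuclei at or below 0.747%.

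Single genes showed the same division, under the same limit. Sorbs2, an adaptor that links actin to adhesion sites, had 39 UMIs in the 7 nuclei, 1 to 10 in each, and 0 in the other 48 mural nuclei. With the Myh11- nuclei set at a floor of 3 counts, it was 106-fold higher in the 7. The interval of the ratio began lower, at 82.0. Dmd, which encodes dystrophin, had 97 UMIs in the 7, 4 to 21 in each, 1 in the 5 and 19 in the Myh11- nuclei (ratio of the 7 to the Myh11- nuclei 41.5, 25.2 to 71.9). Dgkb, a diacylglycerol kinase, had 40, 1 and 6 UMIs in the same order, and Ctnna3, an alpha-catenin of muscle, 37, 0 and 14. Kcnma1, the large-conductance calcium-activated potassium channel, had 19 UMIs in 6 of the 7 and 0 in the other 48. Itga8, an integrin of smooth muscle, had 12 UMIs in 6 of the 7, and Myocd, the coactivator that drives smooth muscle genes, 7 UMIs in 5 of the 7, both with 0 in the other 48. Acta2, smooth muscle actin, had 4 UMIs and Lmod1, leiomodin, 7, and they too lay in the 7 nuclei. Synpo2 had 13 UMIs in the 7, 1 in the 5 and 0 in the Myh11- nuclei. Other contractile genes were not confined to the 7. Mylk had 10 UMIs in the 7, 0 in the 5 and 18 in the Myh11- nuclei. Myl9 had 1, 0 and 2 UMIs in the same order, and Des 0, 1 and 2. Low counts of classical markers limit this picture, as Tagln and Cnn1 had 1 UMI each in all mural nuclei.

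Several mural genes outside the rule were low in the 7, of which Rgs5 and Notch3 were on the pericyte list. Of that list, Gucy1a1 was not lower, with 4 UMIs in the 7 and 26 in the Myh11- nuclei (ratio 1.25, 0.317 to 3.61). Gucy1b1 had 1 and 28 UMIs, and the interval of its ratio held 1 (0.290, 0.00710 to 1.76). Rgs5 had 0 UMIs in the 7, 10 in the 5 and 71 in the Myh11- nuclei, and Ano1 had 0, 11 and 87. With the 7 set at a floor of 3 counts, Rgs5 was 2.91-fold and Ano1 3.57-fold lower in them than in the Myh11- nuclei. The ratio intervals, of 0 to 0.434 and 0 to 0.352, also allow smaller differences. Kcnq5 had 2, 65 and 293 UMIs, so that its level was 298 CPM in the 7 beside 7009.6 in the 5 and 5374 in the Myh11- nuclei. Notch3 was lower but present, at 1044 CPM beside 3235 in the 5 and 2861 in the Myh11- nuclei (ratio of the 7 to the latter 0.365, 0.144 to 0.770). Prkg1 was present in each of the 7, at 5668 CPM beside 11501 in the Myh11- nuclei (ratio 0.493, 0.345 to 0.684). Cacna1c had 3729 CPM in the 7, 2265 in the 5 and 2329.5 in the Myh11- nuclei, and the interval of the ratio held 1 (1.60, 0.998 to 2.47). Pdgfrb, a rule gene, had 1 UMI in the 7.

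**Figure D4:**
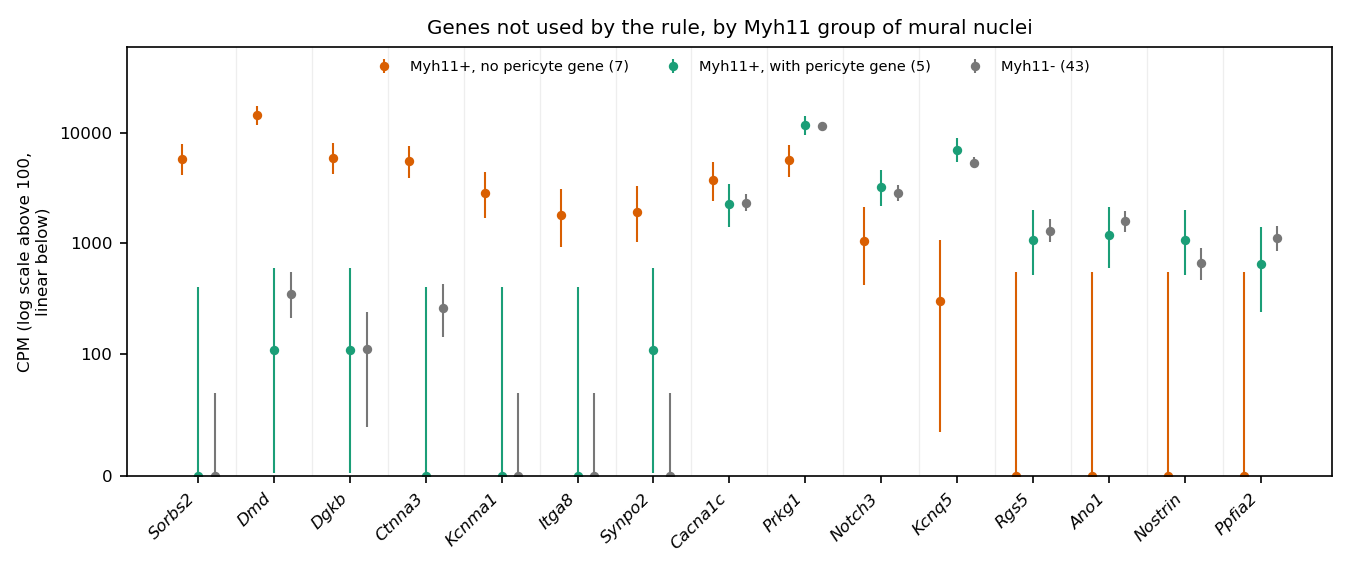
Level in CPM, on an axis that is linear near 0 and logarithmic above, of 15 genes outside the rule in the 7 Myh11+ nuclei without pericyte rule genes, the 5 Myh11+ nuclei with them and the 43 Myh11- nuclei, with 95% counting intervals. From Sorbs2 to Synpo2 the 7 lie above both other groups, for Cacna1c the intervals overlap, and from Prkg1 to Ppfia2 the 7 lie lowest.

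Over all 12 Myh11+ nuclei, 482 genes had at least 20 UMIs over the mural nuclei. Of these, 43 were at least 2-fold higher than in Myh11- nuclei (8.92%) and 64 at least 2-fold lower (13.3%). With TMM scaling, which moved the median log2 ratio by -0.54, the split was 17 and 172, and with the median ratio set to 1 it was 60 and 54. On the contractile list, 3 of 5 genes compared were at least 2-fold higher. The 10 genes with the highest lower bound were Sorbs2, Dmd, Dgkb, Ctnna3, Tpm1 (11.6-fold, 4.11 to 40.2), Ppp1r12a, the myosin phosphatase target subunit (4.27-fold, 2.52 to 7.28), Vcl, vinculin (5.40-fold, 2.49 to 12.2), Pdlim5, Syne1 and Pdzrn3. The 6 with the lowest upper bound were Errfi1, Dtx3, Arap2, Timp3, Ppfia2 and Cdk14. Errfi1, a feedback inhibitor of EGF receptors, had 1 UMI in Myh11+ and 55 in Myh11- nuclei, and Timp3 had 4 and 59. Taken alone, the TN library gave 29 genes at least 2-fold higher of 369 compared, and the 1cyc library, with 4 Myh11+ nuclei, 1 of 43.

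Smooth muscle genes are known targets of serum response factor, which binds a motif called the CArG box, so promoters were searched for it on both strands. The search covered 250 bases before to 50 after each annotated start in the RefSeq promoter table (GRCm38.p6). A CArG box was found in 535 of all 32851 promoters (1.63%), in 2 of the 15 promoters of the contractile list (14 of its 19 genes matched the table), in 2 of the 18 promoters of the 10 genes highest in Myh11+ nuclei, and in 0 of 14 of the pericyte list. A box with 1 other base was found in 2792 of all promoters (8.50%), in 2 of the 15, in 1 of the 18 and in 0 of the 14. The 15 genes highest in mural nuclei had 15 promoters, of which 1 held a CArG box and 2 a box with 1 other base. These sets hold too few promoters to set against the share over all promoters. A match is a description of the letters and does not show a site in use. Promoters of 3 genes with a match are shown, with the box in capitals. They were chosen for the match among genes higher in the 7 nuclei than in the Myh11- nuclei, and so are no sample of those genes. The Vcl promoter lies at chr14:20929148-20929447 on the plus strand and the Dmd promoter at chrX:82948620-82948919 on the plus strand, each with 1 CArG box. The Acta2 promoter lies at chr19:34255324-34255623 on the minus strand, with 2 boxes that carry 1 other base each.
Vcl promoter: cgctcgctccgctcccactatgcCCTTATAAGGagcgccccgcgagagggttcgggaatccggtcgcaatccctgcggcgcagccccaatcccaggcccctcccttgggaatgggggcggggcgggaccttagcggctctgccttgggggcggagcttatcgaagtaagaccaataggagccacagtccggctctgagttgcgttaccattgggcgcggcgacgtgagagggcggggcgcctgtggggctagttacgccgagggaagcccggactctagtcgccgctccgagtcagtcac
Dmd promoter: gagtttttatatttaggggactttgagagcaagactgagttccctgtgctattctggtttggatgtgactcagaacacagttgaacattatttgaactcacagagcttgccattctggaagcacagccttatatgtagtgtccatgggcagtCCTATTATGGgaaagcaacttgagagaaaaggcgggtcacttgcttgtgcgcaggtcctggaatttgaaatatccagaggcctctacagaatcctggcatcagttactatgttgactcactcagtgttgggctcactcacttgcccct
Acta2 promoter: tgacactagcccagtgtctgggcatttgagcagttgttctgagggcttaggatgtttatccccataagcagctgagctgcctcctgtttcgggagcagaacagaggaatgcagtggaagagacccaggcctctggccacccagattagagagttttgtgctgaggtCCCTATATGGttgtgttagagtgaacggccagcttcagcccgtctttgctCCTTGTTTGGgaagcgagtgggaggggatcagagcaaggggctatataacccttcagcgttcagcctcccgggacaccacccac
Vcl had 12 UMIs in the 7 nuclei, 7 in the 5 and 12 in the 43 Myh11- nuclei, so it was spread more widely than Dmd and Acta2.

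Between the conditions, all counts of list genes are given on the CPM scale. Of the 482 genes compared, 34 were at least 2-fold higher in the 12 1cyc nuclei (7.05%) and 53 at least 2-fold lower (11.0%), and the counting interval lay above 1 for 20 and below 1 for 17. The median log2 ratio was 0.11. The split depended on the scaling: with TMM, which moved the median by -0.62, it was 3 higher and 141 lower, and with the median ratio set to 1 it was 23 and 61. The balance also turned with a mitochondrial limit of 5%, which left 21 TN and 9 1cyc nuclei and gave 24 higher and 15 lower of 237. The pericyte list had 12796.5 CPM (11886 to 13758) in TN and 11888 (10106 to 13893) in 1cyc. Of its 7 compared genes, 0 passed 2-fold, a number too small to set against the share over all genes, and the ratio of the list was 0.929 (0.777 to 1.10), or 0.606 with TMM. The cyclic GMP and cyclic AMP list had 19789 CPM in TN and 20766 in 1cyc, a ratio of 1.05 (0.917 to 1.20) that was 0.685 with TMM, and 0 of 9 passed. The potassium channel, Notch, matrix, integrin and Wnt lists had only 1, 3, 3, 5 and 3 genes to compare. Of these 0 passed 2-fold, which is too few genes to set against the share over all genes.

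Contractile genes were at a higher summed level in 1cyc, but the direction turned with the scaling. The list had 3654 CPM (3175 to 4184) in TN and 5492 (4305 to 6906) in 1cyc, a ratio of 1.50 (1.14 to 1.97) that was 0.981 with TMM. Of 5 genes compared, Mylk was at least 2-fold higher, at 677 CPM beside 332, from 9 and 19 UMIs. The share over all genes was 7.05%. Myh11+ nuclei were 8 of 43 (18.6%, 8.39 to 33.4) in TN and 4 of 12 (33.3%, 9.92 to 65.1) in 1cyc. After each nucleus was thinned to 400 UMIs, they were 6 of 43 and 3 of 12. Myh11 was detected in 1 of 206 endothelial barcodes, 1 of 187 fibroblast barcodes and 14 of 4065 remaining ones, with median depths of 1145, 1246 and 698 UMIs. The endothelial and fibroblast rules limit the mural genes, Myh11 among them, so these low shares are partly built in. Within Myh11- nuclei alone, a comparison added after the data were seen, the contractile ratio was 1.39 (0.878 to 2.14), and its interval held 1.

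The calcium list had a 1cyc to TN ratio of 1.23 (1.01 to 1.49), which was 0.802 with TMM. Of 9 calcium genes compared, 2 were at least 2-fold higher, Slc8a1 and Itpr1, and 1 was at least 2-fold lower. The shares over all genes were 7.05% higher and 11.0% lower. The TGF-beta and BMP list had 1975 CPM (1628 to 2375) in TN and 3160.0 (2277 to 4271) in 1cyc mural nuclei. Its ratio was 1.60 (1.09 to 2.30), 1.04 with TMM and 1.52 (0.914 to 2.43) within Myh11- nuclei, while in all other barcodes it was 0.900. Of 3 genes compared on it, 0 passed 2-fold, too few genes to set against the share over all genes. Adipocyte transcripts in mural nuclei went the other way, with 2639.7 CPM (2235 to 3096) in TN and 1580.0 (978 to 2415) in 1cyc, a ratio of 0.599 (0.360 to 0.948). Ghr, the growth hormone receptor, had 43 UMIs in TN and 3 in 1cyc. In all other barcodes the adipocyte list had a ratio of 1.35 (1.33 to 1.37), the opposite direction to mural nuclei, and this difference was not tested.

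**Figure D5:**
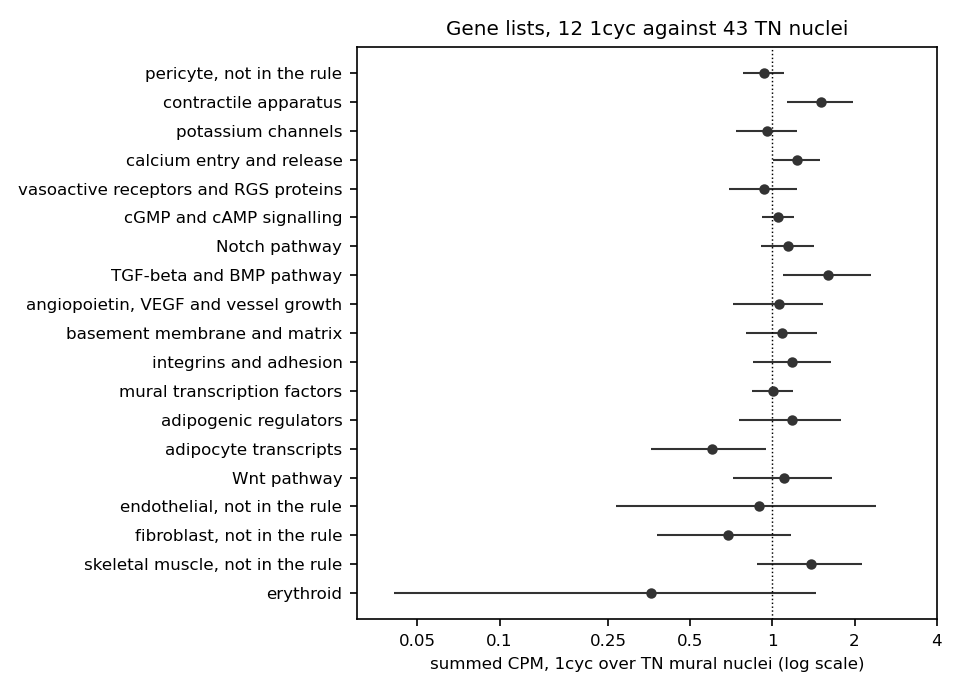
Ratio of the summed CPM of each gene list, 12 1cyc over 43 TN mural nuclei, on a logarithmic axis with 95% counting intervals; the dotted line is 1, and lists with under 20 mural UMIs are left out. The intervals of the contractile, calcium and TGF-beta lists lie above 1, that of adipocyte transcripts lies below it, and the others hold 1. Within Myh11- nuclei alone, not drawn, the intervals of the contractile, calcium and TGF-beta lists hold 1. With TMM scaling, also not drawn, most ratios above 1 fall below it, the contractile ratio to 0.981 and the calcium ratio to 0.802. The TGF-beta ratio is then 1.04.

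Single genes rested on few UMIs. The 6 with the highest lower bound were Crtc3, a coactivator of CREB (12 UMIs in 1cyc and 10 in TN, ratio 5.16, 2.05 to 13.3), Chd6, a chromatin remodeller (3.91), Slc8a1, the sodium-calcium exchanger (13 and 19 UMIs, ratio 2.94), Nostrin (17 and 29 UMIs, ratio 2.52), Dennd5a (3.31) and Tshz2 (2.05). In all other barcodes the 1cyc to TN ratio was 0.787 for Crtc3, 0.984 for Slc8a1 and 1.09 for Nostrin. The difference between mural and other barcodes was not tested, and Nostrin had only 15 UMIs in the latter. The 6 with the lowest upper bound were Fbxl7 (2 UMIs in 1cyc and 43 in TN, ratio 0.200, 0.0235 to 0.768), Malat1 (0.770), Fto (0 and 20 UMIs, interval of the ratio 0 to 0.872), Mast4 (0.620), Taco1 (0.331) and Dgkh (1 and 28 UMIs). Fbxl7 and Dgkh were also lower in 1cyc among all other barcodes, with ratios of 0.474 and 0.374.

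By GENCODE M21 on mm10, Prkg1 lies on chromosome 19 (30564489 to 31765033, minus strand), Cacna1c on chromosome 6 (118587240 to 119196418, minus strand), Notch3 on chromosome 17 (32120820 to 32166852, minus strand), Myh11 on chromosome 16 (14194535 to 14291372, minus strand) and Dmd on chromosome X (82948870 to 85206141, plus strand). Sorbs2 spans 45507788 to 45827906 on the plus strand of chromosome 8. Some of the genes named overlap a gene on the other strand, such as Vcl with Ap3m1, Ctnna3 with Lrrtm3, Timp3 with Syn3, Prkg1 with Cstf2t, Sorbs2 with Sorbs2os and Cacna1c with Dcp1b. How strand was used in counting is not given in the sources used here, so reads of such pairs cannot be told apart.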

How the data were processed

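The deposited files of each library held raw UMI counts per gene and barcode, not normalized, from software version 3.1.0 per the file headers. The submitters' processing notes name mm10 and Cell Ranger 3. Whether intronic reads or strand entered the counts is not given in the sources used here. UMIs were summed over nuclei and scaled to CPM (Python 3.11.15, numpy 2.4.6, scipy 1.17.1). Levels have exact Poisson, ratios exact conditional binomial and shares exact Clopper-Pearson intervals at 95%. Only the ratio intervals were tried on simulated data, for 1cyc against TN mural nuclei. Those counts were drawn as Poisson and so held counting error only. Mural nuclei were compared with all other barcodes for genes with a mean of at least 100 CPM, and among themselves for genes with at least 20 UMIs. Rule genes were left out of counts of genes, and 2-fold was the size called. Doublets were called with Scrublet in scanpy 1.11.5, which marked too few barcodes to be relied on, and were left in. TMM factors came from edgeR 4.0.16 in R 4.3.3. Gene identifiers matched GENCODE M21 for 30934 of 31053.

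The members and the 16 topic and 8 marker lists were chosen with earlier results of these data known. The genes named were the 7 rule genes, list members with at least 10 UMIs, list members whose absence or low level is stated, and genes ranked by their interval: the 15 highest and 5 lowest against other barcodes, the 6 highest and 6 lowest in 1cyc, and the 10 highest and 6 lowest in Myh11+ nuclei. The 5 most like genes were added. Of the genes this rule names, 2 are not reported here. Mitochondrially encoded, ribosomal protein, haemoglobin and unnamed genes were counted but not ranked. Kcnma1, Itga8, Myocd, Acta2, Lmod1 and Synpo2 were named for the 7 nuclei after their values were seen. The alternatives were mitochondrial limits of 5% and 10%, at least 5 mural UMIs, Daam2 left out, 2 times each other class, at least 500 UMIs, doublet calls left out, other scalings and no minimum per gene.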

Additional observations from a re-analysis of the deposited data

Results flagged for a closer look

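Barcodes above the mitochondrial limit, which no comparison used, also held UMIs of the 7 genes of the mural rule, above a floor of 3 counts. In TN, 84 such barcodes held 10 UMIs of these genes, 103 CPM (49.2 to 189), beside 87.2 CPM in the non-mural barcodes under the limit. In 1cyc, 2275 such barcodes held 62 UMIs, 71.0 CPM (54.4 to 91.0), beside 78.3 CPM. In both libraries the level in the non-mural barcodes lay inside the interval. Above the limit, 1 barcode, in TN, met the rest of the mural rule.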

How the results depend on the processing

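Among the alternatives run, no ranked gene that was followed changed direction in the comparison that ranked it. Sorbs2, Fto, Dtx3 and Arap2, which lacked UMIs on a side of their comparison, were not followed, nor were single genes named outside the ranking. The direction of the latter between 1cyc and TN may turn with TMM, as it did for most lists below. The balance of higher against lower calls did change. Between 1cyc and TN it went from 34 against 53 to 24 against 15 with a mitochondrial limit of 5%, between mural nuclei and others from 393 against 343 to 284 against 498 with TMM scaling, and between Myh11+ and Myh11- nuclei from 43 against 64 to 60 against 54 with the median ratio set to 1. Of 13 lists with a 1cyc to TN ratio above 1, 11 fell below 1 with TMM, among them the contractile, calcium, cyclic nucleotide, Notch, integrin and matrix lists. Of the alternative counts, 51 stayed within 1.5 times the main count and 12 did not. Of the alternative values of the ranked genes and the pericyte list, 506 stayed and 29 moved. A mitochondrial limit of 5% left 30 mural nuclei (21 in TN and 9 in 1cyc), with 24 genes at least 2-fold higher and 15 lower in 1cyc and 25 higher in Myh11+ nuclei, of 237 compared. With TMM scaling, 3 genes were higher and 141 lower in 1cyc, and 17 were higher in Myh11+ nuclei. With no minimum per gene, 2966 genes were higher in mural nuclei than in others, 2186 higher and 4576 lower in 1cyc, and 2075 higher in Myh11+ nuclei; many more genes were then compared (19771 and 8601). The 1cyc library alone gave 750 genes higher in mural nuclei of 2045 compared, and 1 higher in Myh11+ nuclei of 43. The TN library alone gave 397 of 1802 and 29 of 369. In the comparison with other barcodes, the median gene had 3 mural UMIs in 1cyc and 10 in TN. The part of this lower depth in the larger 1cyc count was not tested. The single libraries, Myh11- nuclei alone, the median scaling, the pericyte list without Ebf1 and the set of 7 were alternatives chosen after seeing the data. The cause of these shifts was not tested beyond the number of genes and nuclei compared. No paired analysis was possible because each condition was 1 library. Depth limits single genes: over the 482 compared between conditions, the median gene had 7 UMIs in 1cyc and 26 in TN.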
